A study of Danio rerio with 10 samples.

Results

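The genes described here encode plasma proteins and lipid carriers that the liver is known to make: coagulation factors, plasminogen and its inhibitors, serpins, carriers of iron, copper, heme and hormones, complement components, apolipoproteins, and proteins that load or bind lipid. A list of 50 zebrafish symbols was matched to the Ensembl identifiers of the count files in any case and with or without the copy letter, and every identifier that matched was kept. Of the 50 symbols, 48 had at least 1 identifier and 2 (cfi and apoh) had none, which gave 52 of the 32057 genes counted. They fall into 10 coagulation factors, 6 genes for plasminogen and serpins, 15 for transport, binding and acute phase proteins, 6 for complement and 15 for apolipoproteins and lipid handling. The symbol F7 is shared by 3 identifiers and VTN, which stands for the listed vtna and vtnb, by 2, so these are given with their identifiers. The listed hpx was matched by hpxa and hpxb, itih3a by the tandem copies itih3a.1 and itih3a.2, f9b by F9 and apoba by APOB.

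In zebrafish, as in mammals, hepatocytes secrete most plasma proteins, among them the fibrinogen chains, prothrombin, transferrin and the complement components. Before the liver takes over, the yolk syncytial layer, a multinucleate layer that lies on the yolk, makes apolipoproteins and packs yolk lipid into lipoprotein particles, and the enterocytes of the gut make several of the same apolipoproteins. Apolipoprotein B is the structural protein of very-low-density lipoprotein, the microsomal triglyceride transfer protein Mttp loads it with lipid, and hepatic lipase, encoded by lipc, hydrolyses lipid in circulating particles. The liver-type fatty acid binding protein gene fabp10a is widely used to mark zebrafish hepatocytes.

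RNA was measured in 10 libraries, 2 for each of 5 groups, each from a pool of 30 to 35 whole embryos. At 2 days post fertilization (dpf) the groups were rpgrip1l-/- with a curled-down tail (CDT), rpgrip1l-/- with a normal-looking tail and WT, and at 5 dpf they were rpgrip1l-/-, whose tail form the labels do not give, and WT. The mutants carry a frameshift allele made with CRISPR in the AB strain, in a gene of the ciliary transition zone, and came from homozygous crosses, whereas WT came from AB crosses, so the genotype of the parents differed with that of the embryos. The study worked with embryos of several clutches, but how these were divided between the 2 pools of a group is not given, and p-values measure only the spread between these libraries. The libraries held 9101264 to 17536165 counts on genes. The rpgrip1l transcript itself was counted at 11 to 36 reads in every library, and the allele was described as escaping nonsense-mediated decay, so its level does not check the labels.

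The 52 genes took 5.18% and 5.41% of the counts on genes in WT at 2 dpf, 4.24% and 3.97% in CDT, 3.9% and 3.81% in the normal-looking mutants, 2.12% and 2.30% in WT at 5 dpf, and 2.09% and 1.56% in rpgrip1l-/- at 5 dpf. The 3 genes apoa1a, apoa1b and apoa2, for the main proteins of high-density lipoprotein, made up 46.9% to 56.4% of these counts in every library. These are whole embryos, so fewer hepatocytes and less RNA per hepatocyte cannot be told apart, nor can liver, yolk syncytial layer and gut as the source of a transcript. At 2 dpf fabp10a was at only 5.87 and 7.60 CPM (counts of a gene per scaled size of the library) in the WT libraries. All CPM values are scaled with edgeR's TMM factors over the 10 libraries, and are not set per length, so the gene with the highest CPM of a group is the one with the most counts, which need not be the one with the most transcripts.

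**Figure D1:**
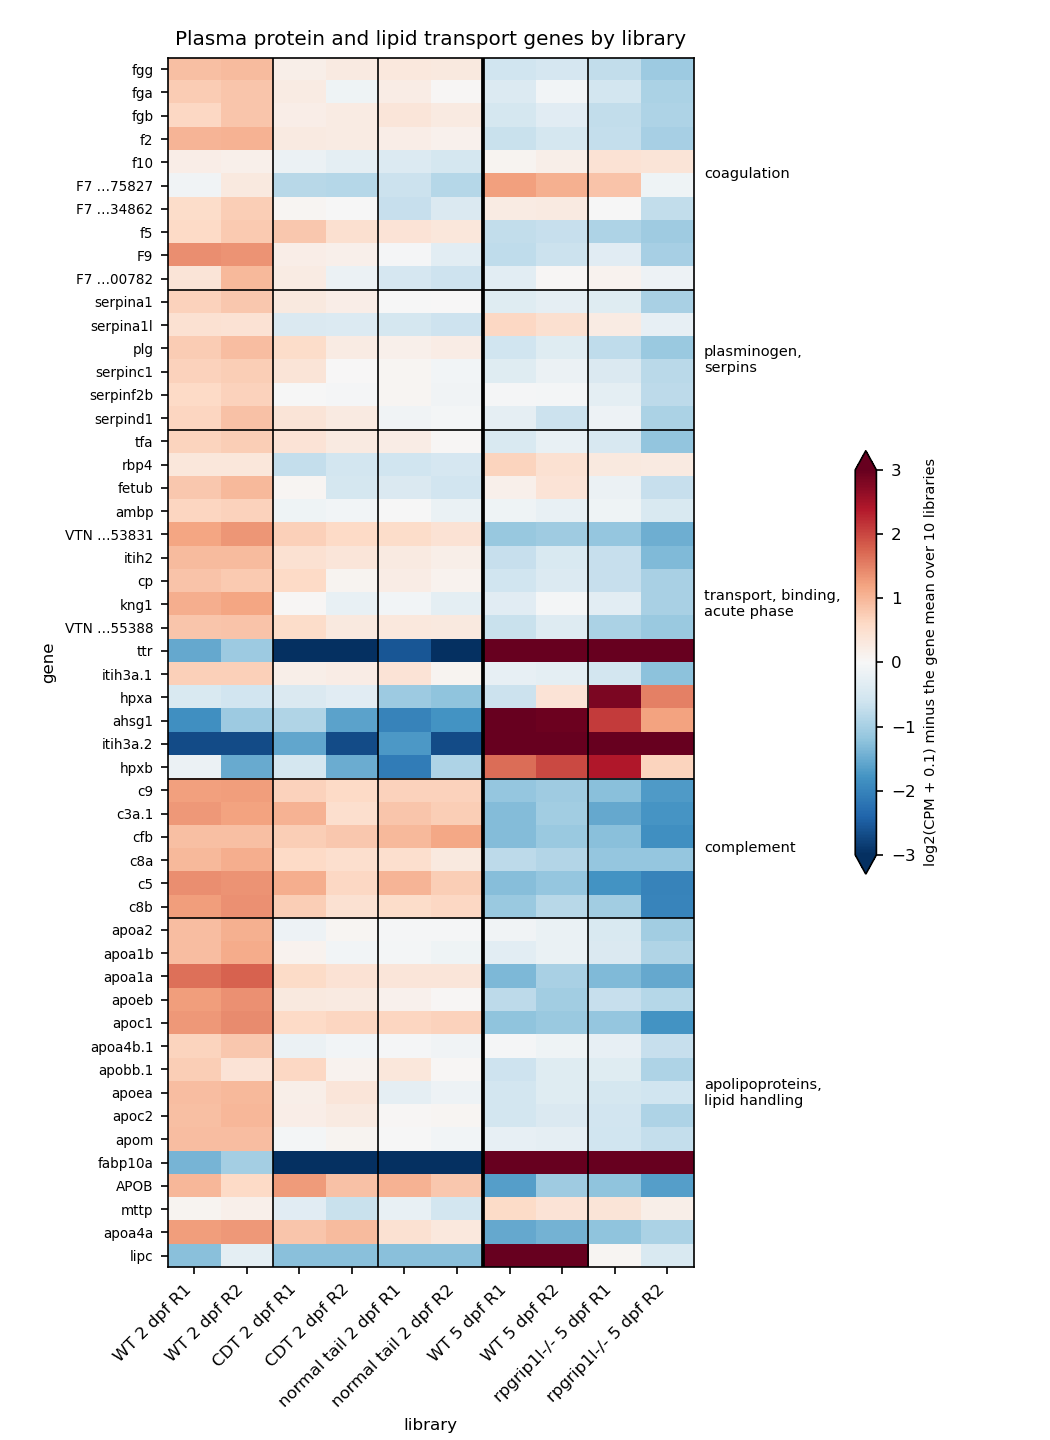
Heat map of the 52 genes (rows, by role and then by mean CPM) in the 10 libraries (columns). Color gives log2(CPM + 0.1) minus the mean of that gene over the 10 libraries, with the scale ending at 3 in either direction. Most rows are highest in WT at 2 dpf, while fabp10a, ttr, ahsg1, itih3a.2, hpxb and lipc are highest at 5 dpf.

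Genes were tested with the quasi-likelihood test of edgeR, and a gene was called when its p, adjusted by Benjamini-Hochberg over every gene of the fit, was under 0.05. From 2 to 5 dpf in WT, 40 of the 52 genes fell, 9 rose and 3 were not called, against 29.5% of 21016 genes tested that fell and 31.3% that rose. The median log2 fold change was -1.17 for the 52 genes and 0.03 for all genes. In CDT against WT at 2 dpf, 41 of the 48 genes that passed the filter on low counts were lower and 1 was higher, against 20.4% and 20% of 19636 genes, with a median of -0.54 against 0.03. In the normal-looking mutants against the same WT libraries, 43 were lower and 1 higher, against 20.4% and 19.2%, with a median of -0.66 against 0.01. The genes hpxb, ttr, itih3a.2 and lipc did not pass the filter at 2 dpf.

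**Figure D2:**
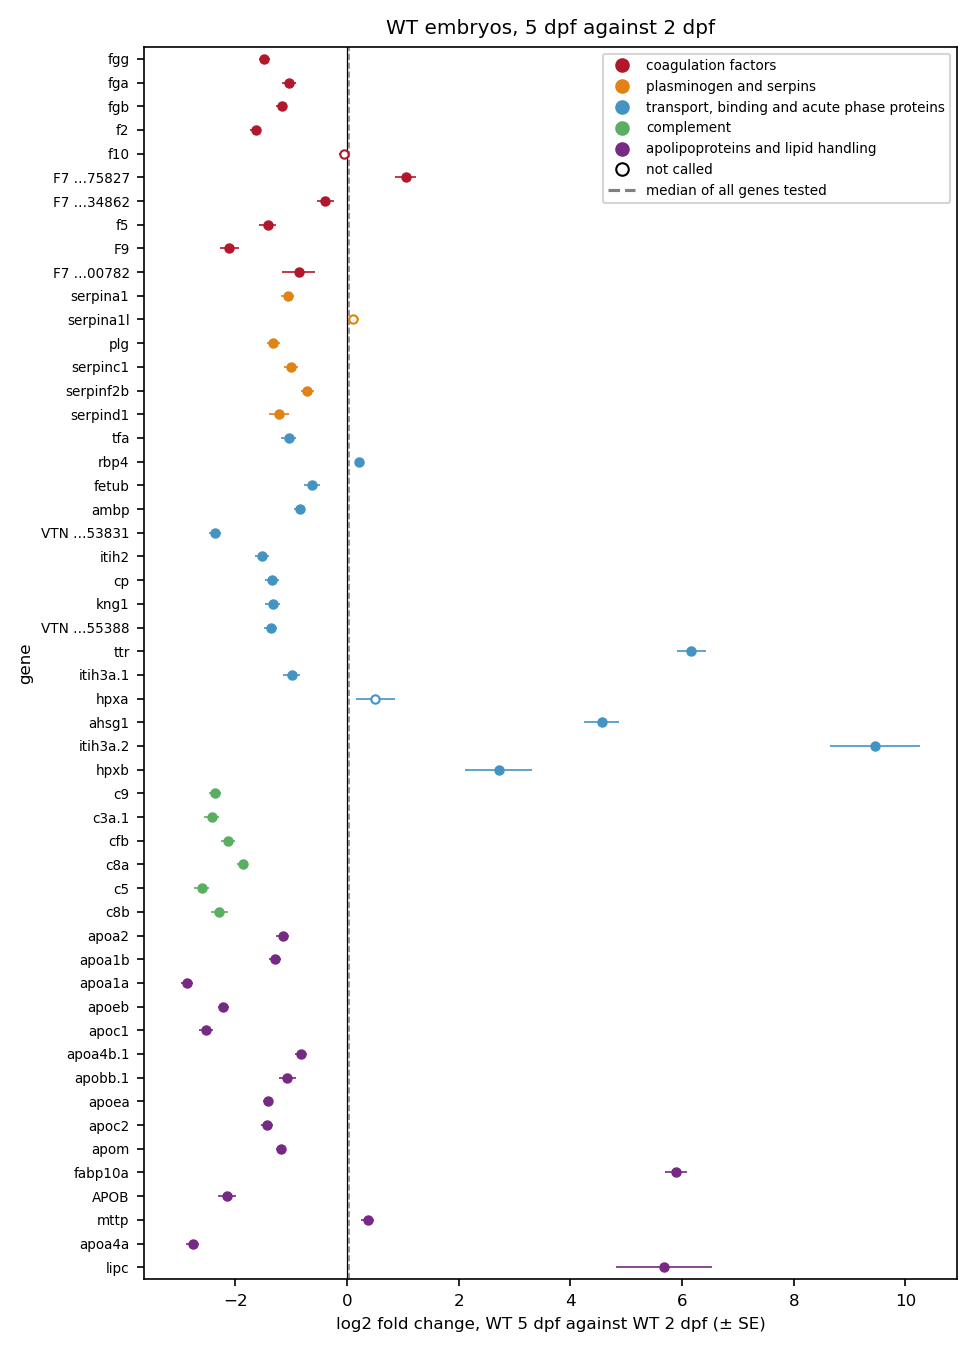
Log2 fold change of each gene from 2 to 5 dpf in WT with its SE as a bar, colored by role, with filled points for calls and the median of all genes as a dashed line. All 6 complement genes lie between -2.60 and -1.87, while ttr, fabp10a, lipc, ahsg1 and itih3a.2 lie above 4, and the positions of itih3a.2 and lipc rest on 0 and 1 counts in WT at 2 dpf.

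Between the tail forms, 3 of the 48 genes were higher in CDT and none was lower by edgeR, against 0.657% and 0.295% of all genes, and the median difference was 0.16 against 0.01. In rpgrip1l-/- against WT at 5 dpf, 11 of the 52 genes were lower and 1 was higher, against 2.56% and 1.28% of 20071 genes, with a median of -0.34 against 0.00. The difference between the genotype effects at 5 dpf and at 2 dpf, with both tail forms averaged at 2 dpf, was positive and called for 22 of the 52 genes and negative and called for none, against 14.7% and 8.74% of 21016 genes.

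The 2 dpf differences depended on the scaling. The TMM factors put the median of all genes near 0, whereas scaling by library size alone moved that median up by 0.45 in both comparisons with WT. With library size alone, 17 of the 48 genes were lower and 5 higher in CDT, and 23 lower and 2 higher in the normal-looking mutants, with medians of -0.09 and -0.21 beside 0.48 and 0.46 for all genes. Of all 19636 genes tested, 922 were then lower and 10214 higher in CDT, and 997 lower and 9733 higher in the normal-looking mutants. Of the genes called lower with TMM, 14 of 41 in CDT and 6 of 43 in the normal-looking mutants then had a positive fold change.

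Many of the genes described here had a high CPM, and with TMM genes with a high CPM were lower in the mutants at 2 dpf as a class. All values by CPM class are from the fits with TMM. Among the 1207 tested genes with a mean of at least 100 CPM, 67.2% were lower in CDT and 64.5% in the normal-looking mutants, with medians of -0.39 and -0.38. These 2 medians are smaller in size than the shift of 0.45 between the scalings. Of the 29 genes of the list at that level, 26 were lower in CDT and 27 in the normal-looking mutants, with medians of -0.64 and -0.69. Among the genes of at least 1000 CPM, 88.6% and 84.9% were lower, with medians of -0.74 and -0.76, beside 8 and 9 of the 9 genes of the list, with medians of -0.88 and -0.81. The part of the CPM level in the 2 dpf differences was not tested further.

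**Figure D3:**
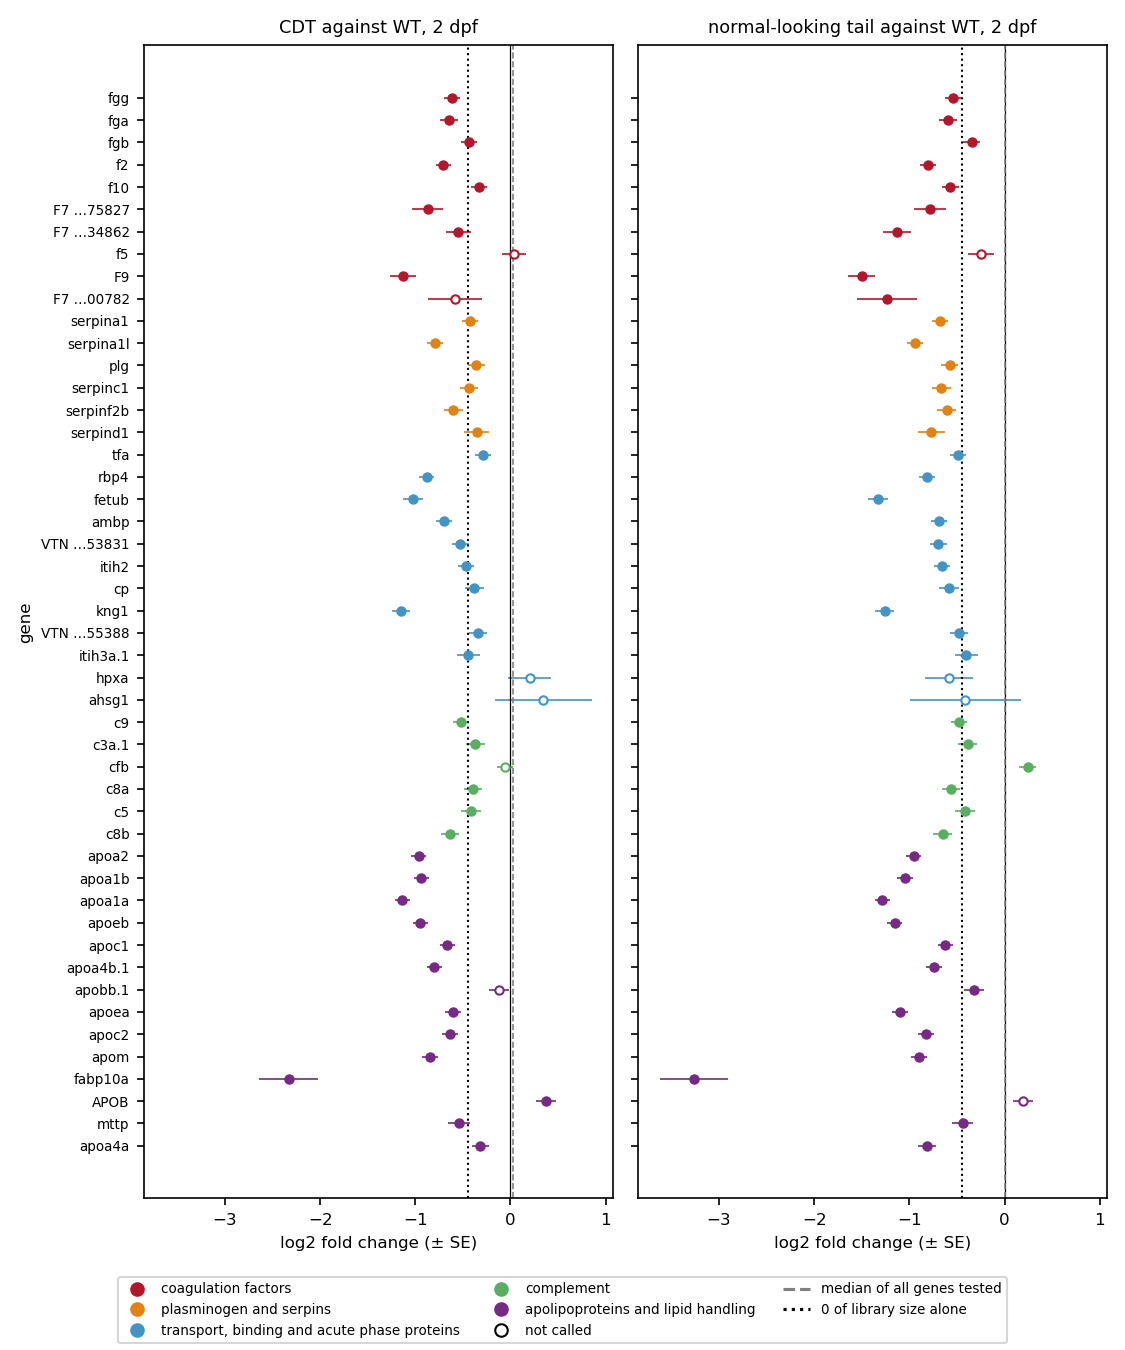
Log2 fold changes of CDT (left) and of normal-looking mutants (right) against the same WT libraries at 2 dpf for the 48 genes tested, with SE as bars and open points for genes not called. The dashed line is the median of all genes with TMM, and the dotted line is where 0 would lie with library size alone, 0.45 lower in each panel, so that points between the dotted line and 0 turn positive with that scaling.

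At 5 dpf the second rpgrip1l-/- library stood apart. It was the lowest of the 4 libraries for 44 of the 52 genes (84.6%), against 27.5% of all genes tested. The log2 ratio of the second to the first mutant library had a median of -0.44 over the 51 genes above 1 CPM, with 48 of the 51 below 0, and a median of 0.00 over all genes. Without the second mutant library the median difference from WT was -0.15 over the 52 genes and -0.01 over all genes, beside -0.34 and 0.00 with it. The differences without it were 2.86 for hpxa, -0.87 for ahsg1 and -4.06 for lipc. For this reason the 5 dpf differences are also given without the second library, where the mutant side rests on 1 library.

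**Figure D4:**
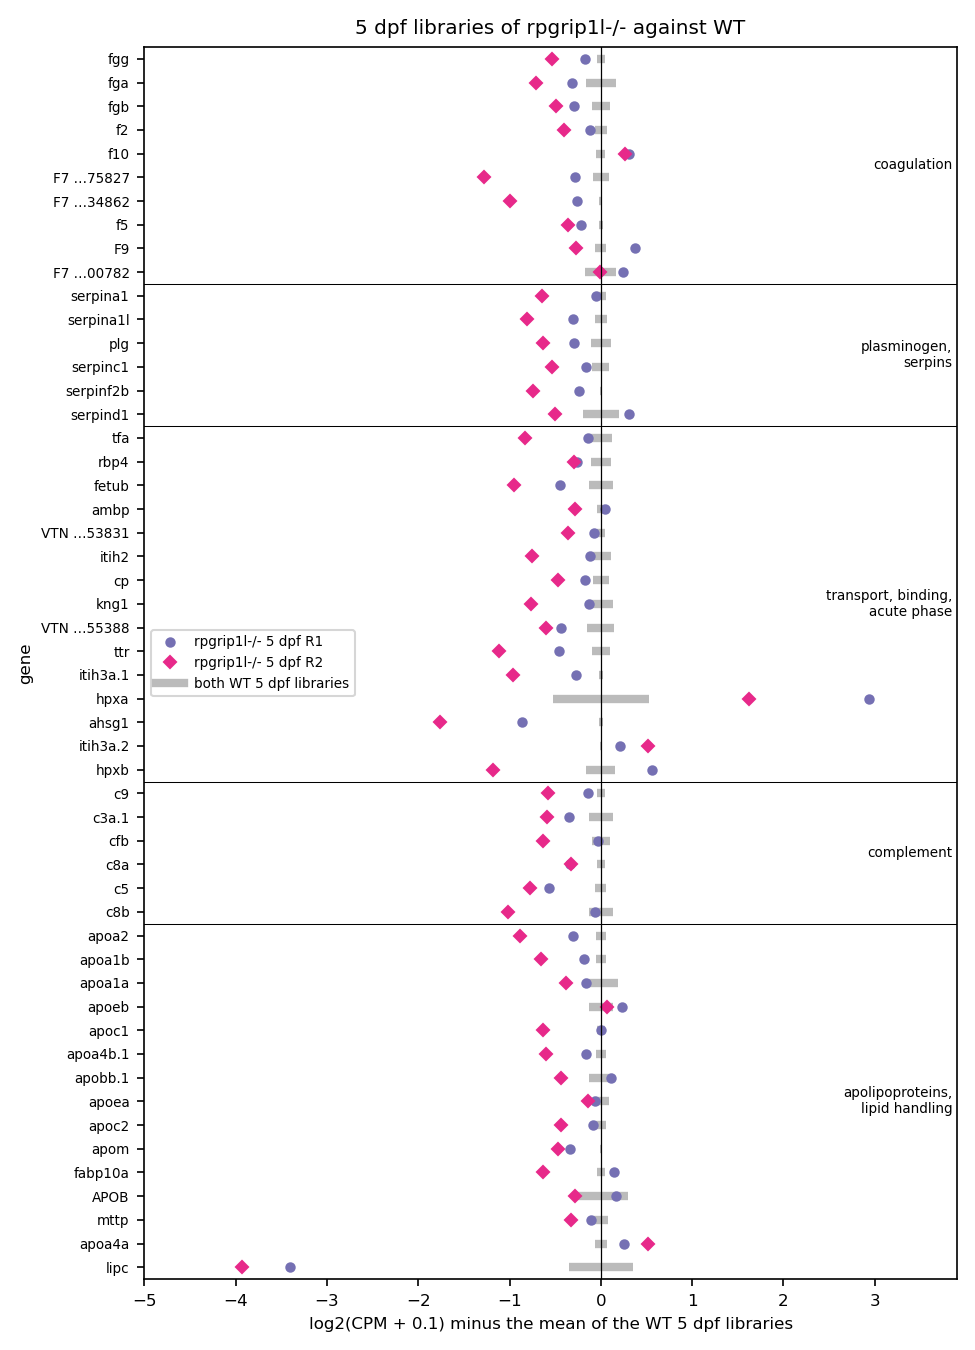
log2(CPM + 0.1) of both rpgrip1l-/- libraries at 5 dpf (circles and diamonds) minus the mean of the 2 WT libraries, with the span of WT as a grey bar, for all 52 genes by role. The second mutant library lies left of the first for most genes, hpxa stands to the right and lipc and ahsg1 to the left in both.

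Among the coagulation factors, 8 of 10 fell from 2 to 5 dpf in WT and 1 rose, with a median log2 change of -1.10. Of all genes, 29.5% fell and 31.3% rose. The 3 chains of fibrinogen, the precursor of the fibrin clot, fell together. The gamma chain gene fgg, with the highest CPM of the group, was at 682 and 700 CPM in WT at 2 dpf, 414 and 441 in CDT, 455 and 448 in the normal-looking mutants, 241 and 256 in WT at 5 dpf and 219 and 171 in rpgrip1l-/- at 5 dpf. All WT libraries at 2 dpf lay above all others. The age change of fgg was -1.48 ± 0.10 (SE, log2), and that of fga and fgb was -1.03 and -1.17.

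Factor IX, the vitamin K-dependent protease of the intrinsic pathway, showed the largest fall of the group with age. F9 was at 25.7 and 25 CPM in WT at 2 dpf and 5.62 and 6.12 at 5 dpf, a log2 change of -2.11 ± 0.17. In CDT it was at 11.1 and 10.8 CPM and in the normal-looking mutants at 9.37 and 7.80, so that all mutant libraries lay below WT at 2 dpf. The log2 differences from WT were -1.13 ± 0.14 (adjusted p = 2.9e-09) and -1.50 ± 0.15 (adjusted p = 9.2e-12) in edgeR, and -0.68 and -1.05 with library size alone, both still called. At 5 dpf F9 was at 7.65 and 4.84 CPM in the mutant libraries, on either side of WT, and the difference of 0.09 ± 0.23 was not called.

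The 3 identifiers named F7, for the protease that starts the extrinsic pathway, did not move alike. F7 ENSDARG00000075827 was at 12.6 and 16.6 CPM in WT at 2 dpf and 31.9 and 28.4 at 5 dpf, and rose by 1.05 ± 0.19 on the log2 scale. F7 ENSDARG00000034862 fell by 0.39 with age and F7 ENSDARG00000100782 fell by 0.86. Reads that could not be given to a single gene stayed out of the counts, and what this took from each of these copies was not tested. At 2 dpf F7 ENSDARG00000075827 was lower in CDT (-0.87) and in the normal-looking mutants (-0.78), while F7 ENSDARG00000100782 was at 1.70 to 5.35 CPM at 2 dpf and was called only in the normal-looking mutants (-1.23 ± 0.32, adjusted p = 0.0015 in edgeR), with an adjusted p of 0.064 without the second WT library.

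F7 ENSDARG00000034862 was 1 of the 3 genes that differed between the tail forms. It was at 15.4 and 14.7 CPM in CDT, 9.09 and 10.9 in the normal-looking mutants and 21.8 and 24.8 in WT, so the groups did not overlap and CDT lay between the others. The difference of CDT from the normal-looking mutants was 0.58 ± 0.15 (adjusted p = 0.0267 in edgeR). In DESeq2 its adjusted p was 0.30, and the call was lost when any 1 of the 4 mutant libraries was left out, with adjusted p of 0.052 to 0.42.

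Prothrombin (f2) fell with age by 1.63 on the log2 scale and was lower at 2 dpf in CDT (-0.70) and in the normal-looking mutants (-0.80), also called with library size alone. Factor X (f10), which activates prothrombin, was the 1 factor of the group not called with age (-0.04 ± 0.09). It was lower at 2 dpf in both mutants (-0.33 and -0.57). At 5 dpf f10 was at 146 and 142 CPM in the mutant and 114 and 123 in WT. That difference of 0.28 ± 0.10 was not called with TMM. It was called with library size alone (0.38), where the median of all genes was 0.10. Factor V (f5), the cofactor of factor X, fell with age (-1.42). It was not called at 2 dpf with TMM (0.04 in CDT and -0.25 in the normal-looking mutants). Library size alone gave 0.49 for f5 in CDT, called higher, but the median of all genes was then 0.48. In the count by group, 8 of 10 were lower in CDT and 9 of 10 in the normal-looking mutants with TMM, beside 20.4% of all genes in each. With library size alone 3 and 4 were lower, beside 922 and 997 of all 19636 genes tested. The sign then turned to positive for fgb and f10 in CDT and for fgb in the normal-looking mutants.

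At 5 dpf fga was the only coagulation gene called in rpgrip1l-/- (-0.51 ± 0.13, adjusted p = 0.049 in edgeR). It was at 190 and 145 CPM in the mutant and at 211 and 266 in WT, without overlap. DESeq2 called fga too. The call was lost without the second mutant library (-0.33, adjusted p = 0.32), without the second WT library and with library size alone (-0.41, adjusted p = 0.10). The remaining 9 genes had differences from -0.70 to 0.28 and were not called.

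Plasminogen (plg), the precursor of the clot-dissolving protease plasmin, and the serpins of the list fell with age in 5 of 6 cases, with a median of -1.03. Some of these serpins restrain coagulation or fibrinolysis. The share of all genes that fell was 29.5%. The one with the highest CPM, serpina1, for the alpha-1-antitrypsin type of elastase inhibitor, was at 559 and 603 CPM in WT at 2 dpf, 425 and 395 in CDT, 344 and 347 in the normal-looking mutants, 268 and 289 in WT at 5 dpf and 268 and 178 in rpgrip1l-/- at 5 dpf. Its neighbor serpina1l differed in the course with age. In WT serpina1l was at 301 and 293 CPM at 2 dpf and at 337 and 307 at 5 dpf, and the change of 0.11 ± 0.11 was not called, whereas serpina1 fell by 1.06. Antithrombin (serpinc1), heparin cofactor II (serpind1), plg and the plasmin inhibitor serpinf2b fell, with changes of -1.0, -1.22, -1.32 and -0.71.

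All 6 genes were lower in both mutants at 2 dpf with TMM, beside 20.4% of all genes in each. The differences were -0.79 to -0.35 in CDT and -0.94 to -0.58 in the normal-looking mutants. With library size alone only serpina1l was called in CDT (-0.34) and serpina1 and serpina1l in the normal-looking mutants (-0.22 and -0.49). Of all 19636 genes tested, 922 and 997 were then lower. plg, serpina1, serpinc1 and serpind1 turned positive in CDT with that scaling. The 6 differences between CDT and the normal-looking mutants were all above 0, from 0.01 to 0.42, and none was called by edgeR. At 5 dpf only serpina1l was called (-0.54 ± 0.14, adjusted p = 0.039 in edgeR), at 260 and 183 CPM in the mutant and 337 and 307 in WT. It was not called without the second mutant library (-0.30, adjusted p = 0.40), without the first WT library, with library size alone (adjusted p = 0.063) or in DESeq2.

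Of the 15 transport, binding and acute phase genes, 9 (60%) fell and 5 (33.3%) rose with age, beside 29.5% and 31.3% of all genes. The share that rose was thus near that of all genes. Transferrin (tfa), the iron carrier and the gene with the highest CPM among them, was at 2756 and 2887 CPM in WT at 2 dpf, 2303 and 2088 in CDT, 2038 and 1776 in the normal-looking mutants, 1263 and 1485 in WT at 5 dpf and 1241 and 769 in rpgrip1l-/- at 5 dpf. It fell with age by 1.04 on the log2 scale. The differences of tfa from WT at 2 dpf, -0.29 in CDT and -0.49 in the normal-looking mutants, were smaller than the median of the list, and the first turned to 0.17 with library size alone.

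Transthyretin (ttr) and the retinol-binding protein gene rbp4, whose products travel together in mammalian plasma as carriers of thyroid hormone and retinol, had different courses. ttr was counted 11 and 13 times in WT at 2 dpf, 0 and 3 times in CDT, and 4 and 1 times in the normal-looking mutants. At 5 dpf it reached 79.5 and 69.4 CPM in WT, a rise of 6.17 ± 0.26 (log2), or 72.6-fold with a 95% counting interval of 48.6 to 113. The summed 2 dpf counts gave a ratio of WT to CDT of 11.2 (3.39 to 57.9) and of WT to the normal-looking mutants of 5.33 (1.99 to 17.9). These intervals cover counting error only. Without the filter on low counts ttr was called lower in CDT (-3.29 ± 0.93, adjusted p = 0.0022) and in the normal-looking mutants (-2.27 ± 0.86, adjusted p = 0.031) in edgeR.

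rbp4 was already high at 2 dpf, at 1474 and 1489 CPM in WT, 719 and 807 in CDT and 777 and 829 in the normal-looking mutants, and reached 1868 and 1599 CPM in WT at 5 dpf. The 2 dpf differences were -0.88 and -0.81, and -0.43 and -0.36 with library size alone, called under both scalings. The rise with age was 0.23 ± 0.09 (adjusted p = 0.030 in edgeR). At 5 dpf ttr was at 54.2 and 34.2 CPM in rpgrip1l-/-, below both WT libraries, a difference of -0.75 ± 0.16 (adjusted p = 0.0143 in edgeR), with an adjusted p of 0.07 without the second mutant library (-0.46), 0.078 without the first WT library and 0.37 in DESeq2. For rbp4, at 1439 and 1408 CPM in the mutant, the difference of -0.28 was not called.

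The fetuin genes ahsg1 and fetub, for mineral-binding plasma proteins of the cystatin family, lie next to each other in the RefSeq gene order of the GRCz12tu assembly and moved in opposite directions with age. ahsg1 was at 0.627 and 1.13 CPM in WT at 2 dpf and at 20.8 and 20.0 at 5 dpf, a rise of 4.56 ± 0.31 (log2). fetub fell from 1458 and 1639 CPM to 916 and 1096, by 0.62. At 2 dpf fetub was at 868 and 576 CPM in CDT and 614 and 557 in the normal-looking mutants, with differences of -1.02 ± 0.10 and -1.33 ± 0.11 that were called under both scalings, and ahsg1 was at or under 1.30 CPM in all 2 dpf libraries and was not called.

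At 5 dpf ahsg1 was at 11.2 and 5.95 CPM in rpgrip1l-/-, a difference from WT of -1.25 ± 0.20 (adjusted p = 0.0026 in edgeR). It was called lower by DESeq2 and without any 1 of the 4 libraries, with a difference of -0.87 without the second mutant library. fetub was at 737 and 518 CPM in the mutant, also below both WT libraries, with a difference of -0.68 ± 0.14 (adjusted p = 0.0126 in edgeR), an adjusted p of 0.13 without the second mutant library (-0.45) and 0.29 in DESeq2.

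Hemopexin binds free heme, and its gene hpxa was the only 1 of the 52 higher in rpgrip1l-/- at 5 dpf with TMM. It was at 50.6 and 20.2 CPM in the mutant and at 4.5 and 9.39 in WT. The groups did not overlap, but the 2 libraries of each group differed by more than 2-fold. The difference was 2.34 ± 0.34 (log2, adjusted p = 0.00117 in edgeR), between 1.54 and 2.98 when 1 library was left out and called each time (2.86 without the second mutant library), and its adjusted p in DESeq2 was 0.10. At 2 dpf hpxa was at 5.19 and 5.53 CPM in CDT, 3.25 and 3.02 in the normal-looking mutants and 5.09 and 4.69 in WT. It had no call under TMM and a call of 0.65 in CDT with library size alone, beside a median of 0.48 for all genes. Its copy hpxb rose with age in WT, from 0.627 and 0.188 CPM to 2.51 and 3.15, and was at 4.20 and 1.19 CPM in the mutant at 5 dpf, on either side of WT.

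Genes of erythrocytes, whose hemoglobin carries heme, were read beside hpxa. At 5 dpf 3 of the 6 tested were higher in rpgrip1l-/- and the others were not called. Their median difference was 0.44, and 0.43 without the second mutant library. Of all genes tested at 5 dpf with TMM, 1.28% were higher. The summed levels of the erythrocyte genes were 940 to 1044 CPM against 706 to 823 in WT. At 2 dpf, where hpxa was not called, the sums were 1813 to 1915 CPM in CDT, 1499 to 1538 in the normal-looking mutants and 2645 to 2719 in WT. Their part in the level of hpxa was not tested.

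The heavy chains of inter-alpha-trypsin inhibitor, which bind hyaluronan, and its light chain precursor gene ambp were measured together. The tandem copies itih3a.1 and itih3a.2 had opposite courses with age. itih3a.1 was at 30.9 and 30.5 CPM in WT at 2 dpf and at 15.7 and 15.3 at 5 dpf, a log2 change of -0.99. itih3a.2 had no count in either WT library at 2 dpf, 1 or 2 counts in 1 library of each mutant, and 6.22 and 6.30 CPM in WT at 5 dpf, a level at least 48.9-fold higher than the limit of 3 counts over the WT group at 2 dpf. The genes itih2 and ambp fell, with changes of -1.52 and -0.85. At 2 dpf itih2, itih3a.1 and ambp were all lower in both mutants with TMM, and ambp also with library size alone. At 5 dpf none of the 4 was called, with differences of -0.41 for itih2, -0.58 for itih3a.1, 0.38 for itih3a.2 and -0.11 for ambp.

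Kininogen (kng1), the precursor of bradykinin, was at 113 and 121 CPM in WT at 2 dpf, 54.2 and 45.7 in CDT, 50.0 and 43.2 in the normal-looking mutants, 42.2 and 50.9 in WT at 5 dpf and 42.5 and 27.2 in rpgrip1l-/- at 5 dpf. The mutant values at 2 dpf lay close to those of WT at 5 dpf. The log2 differences at 2 dpf were -1.15 ± 0.10 and -1.26 ± 0.10, and -0.70 and -0.81 with library size alone. Ceruloplasmin (cp), the copper-carrying ferroxidase, and both vitronectin genes, for an adhesive plasma protein, fell with age, with changes of -2.36 for VTN ENSDARG00000053831, -1.37 for VTN ENSDARG00000055388 and -1.33 for cp. VTN ENSDARG00000053831 was at 277 and 307 CPM in WT at 2 dpf, 202 and 183 in CDT, 178 and 165 in the normal-looking mutants, 55.2 and 58.5 in WT at 5 dpf and 54.1 and 44.3 in rpgrip1l-/- at 5 dpf. All 3 were lower in both mutants at 2 dpf with TMM, with differences of -0.69 to -0.34. At 5 dpf VTN ENSDARG00000055388 was lower (-0.52 ± 0.13, adjusted p = 0.036 in edgeR), at 22.8 and 20.3 CPM against 27.8 and 34.1 in WT. It was not called without the second mutant library (-0.44, adjusted p = 0.15), without the second WT library, with library size alone (-0.42, adjusted p = 0.10) or in DESeq2.

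**Figure D5:**
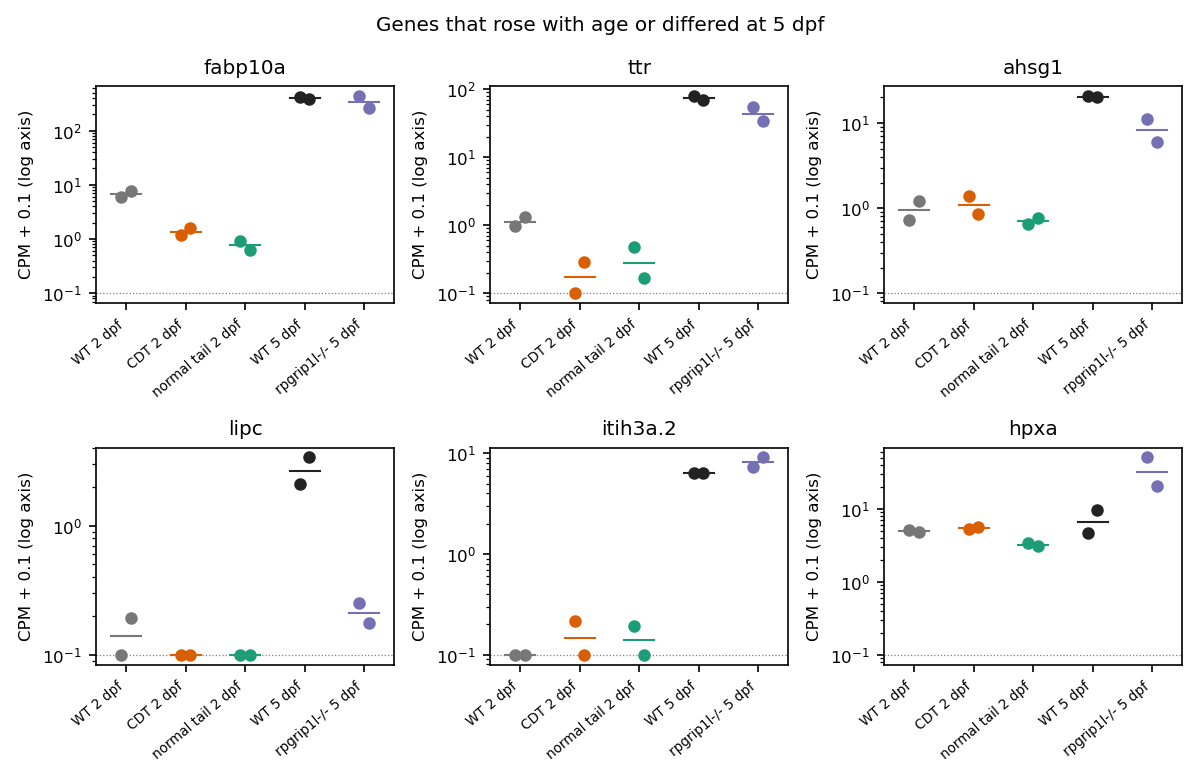
CPM + 0.1 on a log axis in every library for fabp10a, ttr, ahsg1, lipc, itih3a.2 and hpxa, with points for single libraries and lines for the geometric mean of each group. The dotted line marks 0 counts. fabp10a, ttr, ahsg1, lipc and itih3a.2 are at least 10 times higher in WT at 5 dpf than at 2 dpf, and lipc is low and hpxa high in rpgrip1l-/- at 5 dpf.

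All 6 complement genes fell with age in WT, beside 29.5% of all genes, with log2 changes of -2.60 to -1.87 and a median of -2.32. c9, for the pore-forming component of the membrane attack complex and the gene with the highest CPM among them, was at 556 and 568 CPM in WT at 2 dpf, 383 and 361 in CDT, 382 and 385 in the normal-looking mutants, 106 and 113 in WT at 5 dpf and 98.9 and 73.0 in rpgrip1l-/- at 5 dpf. The largest fall was that of c5, which starts the assembly of that complex, from 74.6 and 71.3 CPM to 11.5 and 12.5 (-2.60 ± 0.14). The central component c3a.1 fell from 464 and 431 CPM to 76.1 and 91.0 (-2.42 ± 0.13). The changes of c8a and c8b, for subunits of the attack complex, were -1.87 and -2.28, and that of cfb, for the protease of the alternative pathway, was -2.13.

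At 2 dpf, c3a.1, c5, c8a, c8b and c9 were lower in both mutants with TMM, beside 20.4% of all genes in each. Their differences were -0.64 to -0.37 in CDT and -0.65 to -0.39 in the normal-looking mutants. These were smaller than the shift between the scalings for c3a.1, c5 and c8a in CDT, and with library size alone no complement gene was called lower in either comparison, and c3a.1 and c5 turned positive in both. cfb went the other way in the normal-looking mutants. cfb was at 170 and 193 CPM there, 143 and 152 in CDT and 162 and 161 in WT, and the difference of the normal-looking mutants from WT was 0.24 ± 0.09 (adjusted p = 0.022 in edgeR). That call was lost without the second normal-looking library and without either WT library. With library size alone cfb was called higher in both mutants (0.39 in CDT and 0.69 in the normal-looking mutants). The medians of all genes were then 0.48 and 0.46.

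At 5 dpf c5 was at 8.1 and 7 CPM and c3a.1 at 65.3 and 55.3 CPM in rpgrip1l-/-, all below WT. The differences were -0.67 ± 0.17 and -0.47 ± 0.12, with an adjusted p of 0.038 for each in edgeR. For c5 the adjusted p was 0.19 without the second mutant library (-0.57), 0.083 and 0.14 without either WT library, 0.082 with library size alone and 0.18 in DESeq2. c3a.1 was not called without the second mutant library (-0.36, adjusted p = 0.24), without the second WT library, with library size alone (adjusted p = 0.11) or in DESeq2. c8a, c8b, c9 and cfb had differences of -0.48 to -0.30 that were not called. For none of the 6 complement genes was the difference between the genotype effects at the 2 ages called by edgeR with TMM. Scaling by library size alone gave negative calls for cfb (-0.74, adjusted p = 0.0023) and c5 (-0.61, adjusted p = 0.036) in edgeR. The median of all genes was then -0.36.

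Of the 15 genes for apolipoproteins and lipid handling, 12 fell and 3 rose from 2 to 5 dpf in WT, with a median of -1.28. Among all genes, 29.5% fell and 31.3% rose. The gene with the highest CPM of all 52, apoa2, was at 13934 and 15286 CPM in WT at 2 dpf, 6567 and 7626 in CDT, 7168 and 7153 in the normal-looking mutants, 6868 and 6351 in WT at 5 dpf and 5336 and 3568 in rpgrip1l-/- at 5 dpf. The copies of the apolipoprotein A-I gene fell unequally. apoa1a was at 8745 and 9516 CPM in WT at 2 dpf and 1096 and 1418 at 5 dpf, and apoa1b at 11200 and 12604 and at 4709 and 5097. The log2 changes were -2.86 ± 0.11 for apoa1a and -1.28 ± 0.11 for apoa1b.

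apoa1a, apoa1b and apoa2 were also among the genes with the larger differences at 2 dpf. apoa1a was at 4114 and 3769 CPM in CDT and 3585 and 3554 in the normal-looking mutants, and apoa1b at 6283 and 5512 and at 5625 and 5344. The differences from WT were -1.14 ± 0.08 and -1.28 ± 0.08 for apoa1a, -0.94 and -1.04 for apoa1b, and -0.97 and -0.96 for apoa2. With library size alone they were -0.68 and -0.83, -0.48 and -0.59, and -0.51 and -0.50, all called.

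The apolipoprotein E genes apoea and apoeb, whose product binds lipoprotein receptors, also fell and were lower in the mutants. apoeb was at 4986 and 5416 CPM in WT at 2 dpf, 2577 and 2545 in CDT, 2303 and 2137 in the normal-looking mutants, 1224 and 1022 in WT at 5 dpf and 1308 and 1170 in rpgrip1l-/- at 5 dpf. It was lower at 2 dpf, with differences of -0.95 in CDT and -1.16 in the normal-looking mutants, and was not called at 5 dpf (0.14 ± 0.11). apoea was at 1291 and 1345 CPM in WT at 2 dpf, 773 and 871 in CDT and 561 and 611 in the normal-looking mutants, so the 3 groups did not overlap.

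apoea and apoa4a, which are next to each other in the genome, were the other genes that differed between the tail forms. apoa4a, a gene for apolipoprotein A-IV, was at 55.0 and 60.0 CPM in CDT, 43.1 and 38.8 in the normal-looking mutants and 73.9 and 77.1 in WT. CDT lay between the normal-looking mutants and WT for both genes. The differences of CDT from the normal-looking mutants were 0.49 ± 0.08 for apoea (adjusted p = 0.00022) and 0.50 ± 0.10 for apoa4a (adjusted p = 0.0016) in edgeR, and DESeq2 called both. The adjusted p of apoea was 0.088 without the first normal-looking library, and that of apoa4a 0.20 without the second. Library size alone called the same 3 genes, and the median of all genes was 0.01 with either scaling.

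apoc1 and apoc2, which adjust lipoprotein lipase, lie in 1 stretch of the genome with apoeb and apoa2. apoc1 was at 4530 and 4868 CPM in WT at 2 dpf, 2753 and 2878 in CDT, 2844 and 2954 in the normal-looking mutants, and 794 and 844 in WT at 5 dpf, a fall with age of 2.52 on the log2 scale. apoc2, apom and apoa4b.1, for a cofactor of the lipase, a carrier of sphingosine-1-phosphate and a copy of apolipoprotein A-IV, fell, with changes of -1.43, -1.18 and -0.82, and that of apoa4a was -2.76. At 2 dpf all 5 were lower in both mutants with TMM and all except apoa4a in CDT remained lower with library size alone.

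Apolipoprotein B was counted under APOB and apobb.1. APOB, matched to the listed apoba, was at 214 and 162 CPM in WT, 262 and 199 in CDT and 223 and 187 in the normal-looking mutants, and the ranges of the groups overlapped. The difference of CDT from WT was 0.37 ± 0.10 (adjusted p = 0.0036 in edgeR), the only positive call in that comparison, with an adjusted p of 0.31 in DESeq2, 0.30 without the first CDT library and 0.32 without the second WT library. apobb.1 was at 1592 and 1279 CPM in WT, 1473 and 1029 in CDT and 1200 and 984 in the normal-looking mutants. Its difference was -0.12 ± 0.11 in CDT, not called, and -0.32 ± 0.11 in the normal-looking mutants, called lower with TMM. With library size alone it was 0.33, called higher, in CDT and 0.13 in the normal-looking mutants. Both lay below the medians of all genes with that scaling, 0.48 and 0.46. APOB and apobb.1 fell with age, with changes of -2.15 and -1.07.

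mttp, for the protein that loads lipid onto apolipoprotein B, was at 47.0 and 49.1 CPM in WT at 2 dpf, 34.9 and 27.6 in CDT, 37.5 and 30.3 in the normal-looking mutants, 65.8 and 58.8 in WT at 5 dpf and 57.6 and 49.5 in rpgrip1l-/- at 5 dpf. It rose with age by 0.38 ± 0.12, was lower at 2 dpf in both mutants with TMM (-0.54 and -0.44) and in neither with library size alone, and was not called at 5 dpf (-0.22).

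fabp10a showed the largest 2 dpf differences of the 48 genes tested. It was counted 75 and 81 times in WT at 2 dpf, 18 and 23 times in CDT and 9 and 8 times in the normal-looking mutants, which are 5.87 and 7.60, 1.06 and 1.46, and 0.835 and 0.525 CPM. The groups did not overlap. The log2 differences from WT were -2.33 ± 0.31 and -3.26 ± 0.36, with adjusted p of 2.2e-08 and 3.0e-10 in edgeR, and -1.88 and -2.81 with library size alone. The ratios of the summed counts were 5.31 (95% counting interval 3.74 to 7.69) for WT over CDT and 10.2 (6.17 to 18) for WT over the normal-looking mutants. CDT was higher than the normal-looking mutants by 0.93 ± 0.45, which was not called.

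At 5 dpf fabp10a had risen in WT to 408 and 383 CPM, by 5.89 ± 0.20 on the log2 scale. In rpgrip1l-/- it was at 436 and 256 CPM, 1 library above and 1 below WT, and the difference of -0.20 ± 0.17 was not called. Hepatic lipase (lipc) had 1 count in the second WT library at 2 dpf and none in the other 2 dpf libraries, and was counted 30 and 52 times in WT at 5 dpf. In rpgrip1l-/- at 5 dpf it was counted 2 and 1 times. The ratio of the summed counts of WT to rpgrip1l-/- was 23.6 (95% counting interval 7.80 to 117), the fitted difference was -4.45 ± 0.63 (adjusted p = 0.00084 in edgeR), and lipc was called lower by DESeq2 and without any 1 library (-4.06 without the second mutant library).

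Of the remaining genes of this group, apoa2 and apom were lower at 5 dpf, with differences of -0.57 ± 0.14 (adjusted p = 0.033) and -0.40 ± 0.10 (adjusted p = 0.034) in edgeR. apom was at 212 and 194 CPM in the mutant and 270 and 266 in WT and was also called by DESeq2, but not with library size alone (-0.30, adjusted p = 0.096) or without the second mutant library (-0.34, adjusted p = 0.29). For apoa2 the adjusted p was 0.57 without the second mutant library (-0.31), 0.065 without the first WT library and 0.52 in DESeq2. Nor was apom called without the first WT library. The other 12 genes of the group were not called, and apoa4a and apoeb had positive differences of 0.39 and 0.14. apoa4a was at 13.4 and 16 CPM in the mutant and 10.7 and 11.7 in WT, without overlap. apoa1a was at 1110 and 956 CPM in the mutant, apoa1b at 4313 and 3111, apoc1 at 822 and 528, apobb.1 at 739 and 503 (WT 623 and 746) and apoea at 476 and 451 (WT 468 and 527).

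CDT and the normal-looking mutants were compared with the same 2 WT libraries, so their differences from WT are not independent. In each comparison fabp10a had the largest difference, and apoa1a, kng1, F9 and fetub were below -1.0 in both. Over the 2 dpf groups, 41 genes were called lower in both mutants and 2 in the normal-looking mutants alone (F7 ENSDARG00000100782 and apobb.1). Of all genes tested, 20.4% were lower in CDT and 20.4% in the normal-looking mutants, and the share lower in both is not given here. Only 0.657% of all genes were higher and 0.295% lower in CDT than in the normal-looking mutants. These shares do not supply the missing one, so the 41 shared calls cannot be set beside all genes.

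With TMM the genotype effect differed between the ages for 22 genes, all positive, beside 14.7% of all genes positive and 8.74% negative. They were 11 of the 15 for apolipoproteins and lipid handling, 7 of 15 for transport and binding and 3 of 10 coagulation factors. For plasminogen and serpins it was 1 of 6 (16.7%), near the share of all genes. Among all genes of at least 100 CPM 61.2% had such a positive difference with TMM, beside 17 of the 29 genes of the list at that level. With library size alone the median of all genes moved by -0.42, and 8 of the 52 genes were called positive and 6 negative. The share of all genes called with that scaling is not given here, so these 2 counts cannot be set beside it.

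Genes from other lists were read in the same fits. Of the hepatocyte transcription factor genes, 8 of 20 tested were lower and 2 higher in CDT, beside 20.4% and 20% of all genes. In the normal-looking mutants 9 were lower and 1 higher, beside 20.4% and 19.2%. The differences of these 20 ranged from -1.05 to 3.75 in CDT, with 7 above 0 and a median of -0.12. In the normal-looking mutants they ranged from -1.06 to 3.48, with 8 above 0 and a median of -0.25. Among those called lower with TMM, CEBPA had differences of -0.67 in CDT and -0.81 in the normal-looking mutants, and those of CEBPB were -0.68 and -0.74. HNF4A was called only in the normal-looking mutants (-0.66). The genes called higher, 2 in CDT and 1 in the normal-looking mutants, are not named here. With library size alone the medians of the 20 genes were 0.33 in CDT and 0.20 in the normal-looking mutants, beside 0.48 and 0.46 for all genes. At 5 dpf 1 was higher and 1 lower of 20, beside 1.28% and 2.56% of all genes. The one higher was CEBPB (0.89 ± 0.11, and 0.76 without the second mutant library).

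Of the hepatocyte enzyme genes, 10 of 18 tested were lower and 1 higher in CDT, 9 lower and 2 higher in the normal-looking mutants, and 5 of 23 lower at 5 dpf. The median of the list at 5 dpf was -0.34, and -0.29 without the second mutant library. The largest differences among the 5 were those of PCK1 for gluconeogenesis (-0.98, and -0.85 without that library) and tdo2b for tryptophan breakdown (-0.92 and -0.88). Of other plasma protein genes that were not on the list of 50, 7 of 29 (24.1%) were lower and 5 (17.2%) higher in CDT, near the 20.4% and 20% of all genes, and 8 (27.6%) and 4 (13.8%) in the normal-looking mutants, beside 20.4% and 19.2%. Their medians were 0.04 and 0.05. Among all genes tested at 5 dpf, 2.56% were lower and 1.28% higher. At 5 dpf 6 of 34 other plasma protein genes were lower and none higher by edgeR. The median of these 34 was -0.20, and -0.02 without the second mutant library. The largest differences among the 6 were those of hamp for the iron hormone hepcidin (-1.52, and -1.14 without that library), CETP for cholesteryl ester transfer (-0.97 and -0.80) and mbl2 for mannose-binding lectin (-0.88 and -0.77). With age in WT, 20 of 34 other plasma protein genes and 15 of 22 hepatocyte enzyme genes rose, and 10 and 4 fell, whereas 40 of the 52 genes of the list fell. Of all genes tested with age, 31.3% rose and 29.5% fell.

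These counts at 2 dpf also depended on the scaling. Scaling by library size alone left 2 transcription factor genes lower and 7 higher in CDT and 4 and 5 in the normal-looking mutants, and 5 enzyme genes lower and 4 higher in CDT and 6 and 5 in the normal-looking mutants, and of the other plasma protein genes 17 were higher in each, with 3 lower in CDT and none lower by edgeR in the normal-looking mutants. Under that scaling 922 of all 19636 genes were lower and 10214 higher in CDT, and 997 lower and 9733 higher in the normal-looking mutants.

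Markers of pancreas and gut, organs of the endoderm like the liver, were read in the same way. Of all genes tested with TMM, 20.4% were lower and 20% higher in CDT, and 20.4% and 19.2% in the normal-looking mutants. At 5 dpf 2.56% of all genes were lower and 1.28% higher. The exocrine pancreas list had 11 of 12 tested genes lower in both mutants at 2 dpf. Its summed levels were 154 to 173 CPM in WT, 14.5 to 14.7 in CDT and 11.2 to 11.9 in the normal-looking mutants. At 5 dpf 13 of 14 were lower, with 4406 to 9488 CPM in rpgrip1l-/- and 13343 to 18538 in WT. The median difference was then -1.16, and -0.70 without the second mutant library. The enterocyte list summed to 456 to 503 CPM in WT at 2 dpf and 170 to 187 in the mutants, with 4 of 7 tested genes lower in each. At 5 dpf it summed to 2274 to 2683 in rpgrip1l-/- and 3432 to 3711 in WT, with 5 of 11 lower. The median difference was then -0.45, and -0.36 without the second mutant library. With age in WT, 13 of 14 pancreas genes and 10 of 11 enterocyte genes rose, against 31.3% of all genes. Of the 12 genes listed for the yolk syncytial layer and yolk protein, 3 passed the filter and 3 had no count in any library, and pvalb9 was lower, with differences of -1.58 in CDT, -1.40 in the normal-looking mutants and -0.76 at 5 dpf (-0.58 without the second mutant library). The other 2 tested were not called in any of these comparisons. Their differences were 0.05 and 0.37 in CDT, -0.35 and -0.14 in the normal-looking mutants, and -0.39 and 0.31 at 5 dpf. Outside the endoderm, 5 epidermis genes of 10 were lower and 2 higher in CDT and 6 lower in the normal-looking mutants, 3 of 6 macrophage genes were higher in CDT and 2 higher and 1 lower in the normal-looking mutants, and 3 of 6 erythrocyte genes were lower and 1 higher in CDT and 4 lower in the normal-looking mutants. The pancreas and enterocyte counts of lower genes at 2 dpf were the same with library size alone, while under that scaling 5 epidermis genes were higher and 2 lower in CDT and 4 and 3 in the normal-looking mutants, and 1 and 3 erythrocyte genes were lower and 2 and 1 higher. Of all 19636 genes, 10214 were then higher and 922 lower in CDT, and 9733 higher and 997 lower in the normal-looking mutants. The part of these cell types, and of a difference in developmental stage between the 2 dpf groups, in the levels of the plasma protein genes was not tested.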

How the data were processed

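The deposited values are read counts per gene, whole numbers without normalization. The authors selected poly(A) RNA, sequenced 150 bp read pairs, used Trim Galore 0.4.4 for trimming and STAR 2.7.3a for alignment to GRCz11, and obtained the counts from HTSeq 0.12.3 at its default mode. Of the reads in these files 42.5% to 44.3% were on genes. The rows for reads not counted on a gene (55.7% to 57.5%) stayed out of library sizes and tests. Most of these were on no gene (45.6% to 47.3% of reads), and 0.455% to 0.545% of reads were ambiguous between genes.

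Symbols came from a table that pairs 28988 of the 32057 identifiers with a name. Gene order came from RefSeq for GRCz12tu, whose coordinates and lengths were not used, so levels were not set per length. The members and the other lists were chosen with earlier results of these data known.

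Tests used edgeR 4.0.16 in R 4.3.3 (TMM, filterByExpr by group, quasi-likelihood F test, Benjamini-Hochberg over all genes of a fit, no block). One fit held the 4 libraries of 5 dpf (residual degrees of freedom: 2), another the 6 of 2 dpf (3), and the last all 10 (5), which served the WT ages and the difference between genotype effects. SE is the fold change over the square root of F. Ratios of summed counts carry exact 95% intervals, and 3 counts served as the limit for a group at 0. Values per library are given for fabp10a, tfa, ttr, apoa1a, apoa1b, apobb.1, apoea, apoeb, mttp, the gene of each role with the highest CPM, and up to 6 called genes in each direction with the largest fold change in each comparison. Others shown by library were chosen after their values were seen. Alternatives were DESeq2 1.42.0, scaling by the upper quartile or by library size alone, no filter, 10 counts in every library, a replicate block, other sets of libraries, exact symbols only, and leaving out each library. The tests were checked on simulated counts. No library was a copy of another. The classes by CPM, the list counts with library size alone and the list medians without the second mutant library were added after seeing the data. Some genes counted in the lists are not reported here by name.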

Additional observations from a re-analysis of the deposited data

Results flagged for a closer look

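For 22 of the 52 genes the difference between rpgrip1l-/- and WT was not the same at 5 dpf as at 2 dpf, by the interaction contrast in edgeR, and all 22 contrasts were positive with TMM, beside 14.7% of all genes with a positive and called contrast. At 100 CPM or more that share was 61.2%, beside 17 of the 29 genes of the list. When only library size was used for scaling, 8 contrasts were called positive and 6 negative, and the share of all genes under that scaling is not given here. With TMM the largest contrasts on the log2 scale were those of fabp10a (2.67 ± 0.33), hpxa (2.60 ± 0.45), ttr (2.11 ± 0.70), F9 (1.48 ± 0.24), apoeb (1.27 ± 0.12) and apoa4a (1.03 ± 0.16). For fabp10a, F9 and apoeb the mutants were below WT at 2 dpf and not called at 5 dpf. hpxa was higher at 5 dpf (adjusted p in DESeq2 0.10) and at 2 dpf was not called with TMM. With library size alone hpxa was called in CDT (0.65), where the median of all genes was 0.48. ttr had 3 and 5 counts in the mutant groups at 2 dpf, against 24 in WT, and was lower at 5 dpf. The adjusted p of the ttr contrast was 0.030, and 0.067 with library size alone, 0.12 without the first CDT library, 0.11 without the second normal-looking library and 0.14 without the second WT library at 2 dpf. The ages may also differ in the tail forms pooled, which cannot be told, since the labels do not give that of the 5 dpf mutants.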

How the results depend on the processing

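The count of genes called in WT between the ages stayed within 1.5 times of 49 under every alternative run, and between 46 and 49 with 1 library left out. With library size alone the counts were 22 instead of 42 in CDT against WT, 25 instead of 44 in the normal-looking mutants against WT, 7 instead of 12 at 5 dpf, and 14 instead of 22 for the difference between genotype effects. At 5 dpf the count was 4 in DESeq2 and 22 when all 10 libraries shared a fit. With 1 library left out the counts were 37 to 43 in CDT against WT, 38 to 45 in the normal-looking mutants against WT, 1 (without the first normal-looking library, and likewise without the second) to 10 (without the second CDT library) between the tail forms, 3 to 32 at 5 dpf (without the second and the first mutant library), and 15 to 33 for the difference between genotype effects. Where a cause is not plain from the alternative itself, the cause was not tested. With the replicate number as a block (replicate block), 21 genes were called at 5 dpf instead of 12, and no other count moved by over 1.5 times. Libraries with the same number did not deviate together across genes (correlations of -0.05 to 0.03 between groups). These correlations cannot tell whether such libraries shared a clutch or a preparation. Of the 42 called fold changes that were the largest of their comparison (up to 6 in each direction), none changed direction under DESeq2, either other scaling, no filter, the block or with a library left out, and DESeq2 left 7 and library size alone 2 without a call. Smaller differences did turn with library size alone, 14 in CDT and 6 in the normal-looking mutants, from called lower to positive. The 2 libraries per group limit what can be called, and for hpxb, itih3a.2 and lipc at 2 dpf, under 1 CPM on average in every group, the depth does.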
